A study of Mus musculus with 12 samples.

Results

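The genes described here are the calcium/calmodulin-dependent kinase kinases (Camkk1 and Camkk2) and the kinases on which they act: the CaMKI genes Camk1, Camk1d and Camk1g, the CaMKIV gene Camk4, and the catalytic subunits of AMP-activated protein kinase (AMPK), Prkaa1 and Prkaa2. Camkv, a relative that lacks kinase activity, was kept with them. The members were chosen by gene symbol, and all 9 were found among the 15759 rows of the table of normalized counts. All 9 passed the filter of a mean of at least 10 normalized counts that left 15369 tested genes. The 12 RNA-seq libraries formed 4 groups of 3: whole cortex and whole cerebellum of spinocerebellar ataxia type 1 knock-in (SCA1 KI) mice and of wild-type (WT) littermates, all C57BL/6J and 12 weeks of age. SCA1 KI mice are heterozygous, with 154 glutamine codons in the knock-in Atxn1 allele and 2 in the other, so the mutant protein is made wherever the endogenous gene is active. The sequencing labels name male mice only, while the methods of the study speak of both sexes. The cerebellar libraries came from an earlier experiment of the same laboratory, so region and experiment cannot be told apart in any comparison between the regions, the difference of their genotype effects included.

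In neurons, calcium that enters through channels and receptors binds calmodulin, and calcium/calmodulin switches on the CaMKKs, which phosphorylate the activation loop of CaMKI, CaMKIV and the catalytic subunit of AMPK. CaMKI acts mainly in the cytoplasm on axon and dendrite growth, CaMKIV acts mainly in the nucleus on CREB and its coactivators, and AMPK senses a fall in cellular energy and restrains growth. In the brain CaMKIV is abundant in cerebellar granule cells, and CaMKK2 is found in many neurons and links calcium to AMPK.

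Reads on genes numbered 29520855 to 51311309 per library, and the member with the fewest reads in any library was Camkv with 221, so no member's value rested on a low count. The dissections carried their labels: all 7 markers of cortical excitatory neurons were higher in WT cortex, and all 6 granule cell and 7 Purkinje cell markers were higher in WT cerebellum. Atxn1, the targeted gene, had 8147, 7443 and 6521 normalized counts in the WT cortex and 4604, 7249 and 6267 in the SCA1 KI cortex (libraries B, C and D, and A, E and F). In the cerebellum Atxn1 had 3737, 3628 and 3671 in WT (libraries 2, 4 and 6) and 3812, 3717 and 4138 in SCA1 KI (libraries 1, 3 and 5). By limma the log2 fold change (LFC) of SCA1 KI against WT was −0.31 in the cortex, with an adjusted p of 0.132, and 0.08 in the cerebellum, with an adjusted p of 0.837, so neither passed, although the cortical LFC did without SCA1 KI library E (−0.45, adjusted p = 0.0248). Reads of both alleles are counted together, so this level does not check the genotype labels.

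The 250 bases before the annotated start of 3 members are shown because they cover the 2 kinase kinases, which both fell in the SCA1 KI cortex, and a member with a start region of another base composition. All are read 5′ to 3′ on the strand of the gene from RefSeq on GRCm38.p6, and capitals mark TGACG, the core of the cyclic AMP response element to which CREB binds.
Camkk1 (chr11:73018738-73018987, plus strand): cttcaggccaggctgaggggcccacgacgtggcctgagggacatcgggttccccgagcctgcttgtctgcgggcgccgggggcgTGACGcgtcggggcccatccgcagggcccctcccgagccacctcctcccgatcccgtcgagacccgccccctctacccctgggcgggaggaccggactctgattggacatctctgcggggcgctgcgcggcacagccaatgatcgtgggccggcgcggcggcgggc
Camkk2 (chr5:122779411-122779660, minus strand): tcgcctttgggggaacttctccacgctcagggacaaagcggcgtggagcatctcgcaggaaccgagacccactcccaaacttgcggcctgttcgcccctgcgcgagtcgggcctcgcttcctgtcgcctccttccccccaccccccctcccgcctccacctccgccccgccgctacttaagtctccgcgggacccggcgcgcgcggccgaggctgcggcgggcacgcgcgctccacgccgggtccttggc
Camk1g (chr1:193370283-193370532, minus strand): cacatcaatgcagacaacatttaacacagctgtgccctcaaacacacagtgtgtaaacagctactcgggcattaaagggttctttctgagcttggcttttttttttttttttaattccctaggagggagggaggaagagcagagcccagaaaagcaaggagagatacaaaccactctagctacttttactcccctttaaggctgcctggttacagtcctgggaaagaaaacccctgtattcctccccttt
Camkk1 and Camkk2 start in stretches of 74.4% and 72.4% GC with 29 and 32 CpG dinucleotides, whereas the Camk1g stretch has 44.8% GC and 1 CpG. The median over 32851 RefSeq promoters of the same length was 52.4% GC and 6 CpG. Windows were available for 8 members (9 windows, 2 of them for Camk1d), and none was available for Camk4. TGACG or its reverse complement CGTCA occurred in 3 of the 9, those of Camkk1 (166 bases before the start), Camk1 and Prkaa2, and in 17.8% of all promoters. The full element TGACGTCA was in none of the 9 and in 1.55% of all. TGAATGAA and TGAATGGA, octamers bound by Capicua, the partner protein of ataxin-1, were in none of the 9 and in 1.08% and 1.01% of all promoters. Motifs were searched on both strands, TGACG also lies within TGACGTCA, and a match or its absence in these letters says nothing of binding.

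Camkk2, the kinase kinase, stood lowest relative to WT in the SCA1 KI cortex. Camkk2 (chromosome 5, 122731170 to 122779409, GRCm38, minus strand) had 17587, 19297 and 17967 normalized counts in the 3 WT cortex libraries and 6732, 7916 and 7845 in the 3 SCA1 KI libraries. Every SCA1 KI library was thus below every WT library, with 18284 ± 898 in WT and 7498 ± 664 in SCA1 KI (SD, n = 3 each). On the log2(normalized count + 1) scale the LFC was −1.29 with a standard error of 0.11 (limma, adjusted p = 1.60e-05), a 2.44-fold lower level.

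Camk4, a direct target of the CaMKKs, fell by a like amount in the cortex. Camk4 (chromosome 18, 32934931 to 33191228, plus strand) had 19931, 20994 and 19810 normalized counts in WT cortex and 9143, 11844 and 9155 in SCA1 KI cortex. SCA1 KI library E was the highest of its group and still far below the lowest WT library. The LFC of Camk4 was −1.02 (standard error 0.12, adjusted p = 1.33e-04, limma), or 2.03-fold lower. Exons of Camk4 share 72 bases with the antisense transcript 2310026I22Rik, whose reads cannot be separated here.

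Camkk1 (chromosome 11, 73019008 to 73042073, plus strand), the second kinase kinase, fell as well, with a smaller LFC than Camkk2. Its normalized counts were 5233, 5782 and 5931 in WT cortex and 3994, 3747 and 3316 in SCA1 KI cortex, with no overlap. Camkk1 had an LFC of −0.62 (standard error 0.082, adjusted p = 2.68e-04, limma), or 1.53-fold lower.

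Among the CaMKI genes, Camk1g and Camk1d fell in the cortex while Camk1 stayed within its spread. Camk1g, the gene of CaMKIγ (chromosome 1, 193346346 to 193370298, minus strand), had 1236, 1793 and 1359 normalized counts in WT and 1056, 927 and 913 in SCA1 KI cortex (LFC −0.58, standard error 0.11, adjusted p = 0.00376). Its WT libraries were the most uneven of any cortical member, with an SD of 20.0% of the mean, and WT library C lay highest. Camk1d, the gene of CaMKIδ (chromosome 2, 5293457 to 5714515, minus strand), had 11116, 10371 and 9705 in WT and 8052, 9082 and 8171 in SCA1 KI (LFC −0.30, standard error 0.065, adjusted p = 0.00673). When each library was corrected for a trend on transcript length and base composition, the LFC of Camk1d was −0.20 and no longer reached the LFC limit of 0.25. Camk1, the gene of CaMKIα (chromosome 6, 113334124 to 113343984, minus strand), had 2362, 2847 and 2793 in WT and 2926, 2449 and 2490 in SCA1 KI (LFC −0.02, 95% interval −0.20 to 0.15, adjusted p = 0.873). Its genotypes overlapped in the cortex, and 232 of its exonic bases are shared with Ogg1 on the opposite strand.

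The AMPK catalytic subunits differed by small amounts between the genotypes in the cortex. Prkaa2 (AMPKα2, chromosome 4, 105029874 to 105109890, minus strand) had 3283, 3598 and 3541 normalized counts in WT and 2859, 3152 and 2763 in SCA1 KI, with no overlap. Its LFC of −0.25 had an adjusted p of 0.0159 (limma) and fell just short of the LFC limit of 0.25, so Prkaa2 was not counted as a differentially expressed gene (DEG), whereas it passed without WT library B (LFC −0.29) or without SCA1 KI library E (−0.30). Prkaa1 (AMPKα1, chromosome 15, 5143861 to 5181899, plus strand) had 1681, 1599 and 1649 in WT and 1761, 1953 and 1907 in SCA1 KI, where all 3 SCA1 KI libraries were higher (LFC 0.19, standard error 0.062, adjusted p = 0.0547). Neither subunit was a DEG in the cortex.

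Camkv, the pseudokinase of the group (chromosome 9, 107935674 to 107949691, plus strand), had 17465, 15062 and 15552 normalized counts in WT cortex and 11679, 13017 and 11675 in SCA1 KI cortex. No library overlapped, but the LFC of −0.40 (standard error 0.21, adjusted p = 0.223, limma) did not pass. The spread in this fit is shared by all 12 libraries and Camkv was uneven in the WT cerebellum. Fitted on the cortical libraries alone, the LFC of Camkv passed with an adjusted p of 0.0173.

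**Figure D1:**
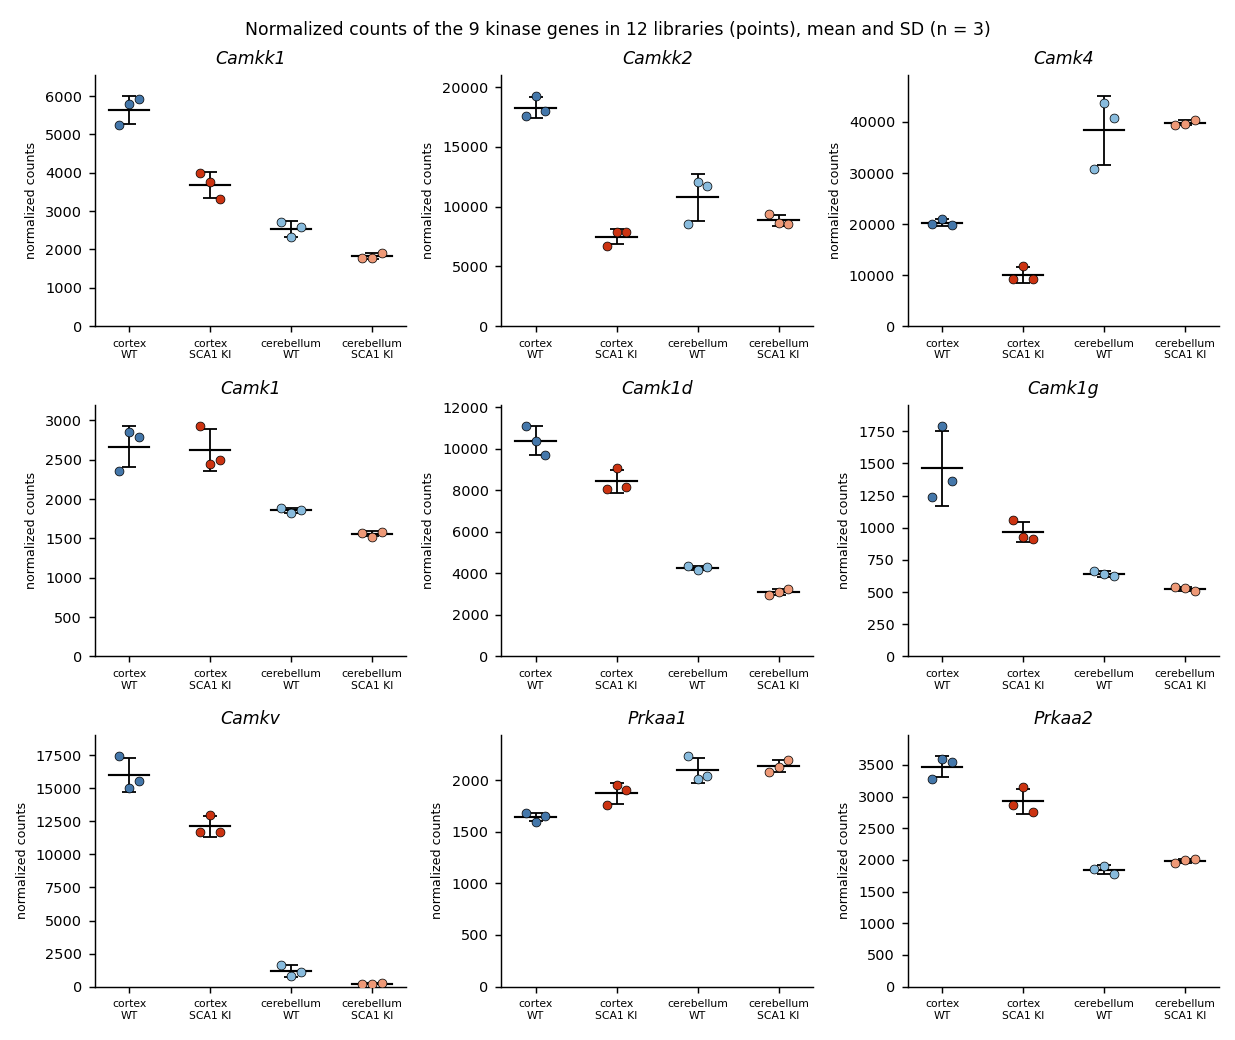
Normalized counts (vertical axes, linear, from 0) of the 9 members in every library (points) of the 4 groups, with the mean (long line) and SD (whiskers, n = 3). Camkk2 fell from 18284 to 7498 and Camk4 from 20245 to 10048 on average in the SCA1 KI cortex, while in the cerebellum Camkv went from 1167 to 201.

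In all, 5 of the 9 members were DEGs that were lower in the SCA1 KI cortex (Camkk2, Camk4, Camkk1, Camk1g and Camk1d) by the criteria of the study, |LFC| above 0.25 with an adjusted p below 0.05, where 10.8% of all tested genes were. None was a DEG that was higher, against 4.82% of all tested genes. At an unadjusted p under 0.05 only Prkaa1 was higher, and edgeR and DESeq2 on the recovered reads also called 0 higher and 5 lower. The median LFC was −0.40 over the 9 members and −0.003 over all tested genes. Libraries of the genotypes did not overlap for 7 members that were lower (18.0% of all tested genes) and 1 that was higher (13.0%).

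Markers of several cell types moved with the genotype in the same cortical libraries, where 10.8% of all tested genes were lower DEGs and 4.82% higher. The sums given below weigh the most abundant genes of a list most. Of 7 cortical excitatory neuron markers 3 fell (Slc17a7, Cux2 and Rorb), and the summed normalized count of the 7 was 88378 to 90282 in WT and 59382 to 70325 in SCA1 KI. Slc17a7 alone held most of this sum, 59871 to 62252 in WT and 41177 to 47425 in SCA1 KI. Of 5 interneuron markers 2 fell (32240 to 34582 in WT, 23072 to 30864 in SCA1 KI), and of 5 astrocyte markers 3 fell (50262 to 55335 and 33383 to 43584). Neurod6, a marker of cortical projection neurons, had overlapping genotypes, with an LFC of −0.12 that did not pass. Thalamic and midbrain markers went the other way, with 3 of 6 higher and sums of 657 to 742 in WT and 1256 to 1795 in SCA1 KI. Of 7 genes listed as Purkinje cell markers, which cortical cells also express in part, 3 fell (Calb1, Car8 and Itpr1) and 1 rose, and the sums were 42464 to 45495 in WT and 25054 to 29162 in SCA1 KI. Itpr1 alone held most of these sums, 34428 to 36281 in WT and 17419 to 22203 in SCA1 KI. Of 4 striatal markers Ppp1r1b fell (LFC −1.21, adjusted p = 0.00429), and the sums overlapped, at 4055 to 9501 in WT and 2032 to 4401 in SCA1 KI. WT library B stood apart in this list, with 378 normalized counts of Drd2 against 18.8 and 45.5 in the other WT libraries, and held 1298 of the choroid plexus gene Ttr against 41.0 and 54.6. It was also the highest WT library for Camk1d and Camkv. Without it the LFC was −0.25 for Camk1d (adjusted p = 0.0282, still a DEG) and −0.34 for Camkv, and Camkk2 (−1.32), Camk4 (−1.03), Camkk1 (−0.67) and Camk1g (−0.70) stayed DEGs. None of the 6 oligodendrocyte or 6 microglia markers was a DEG in the cortex (0 of each list at an unadjusted p under 0.05, limma). The part of these markers in the fall of the kinase genes was not tested, and in whole tissue fewer cells of a type and less RNA per cell cannot be told apart.

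In the cerebellum the members that led in the cortex differed less between the genotypes. Camkk2 had 8527, 12088 and 11693 normalized counts in WT and 9386, 8624 and 8539 in SCA1 KI, so that WT library 2 lay below every SCA1 KI library and the other two WT libraries above (LFC −0.27, 95% interval −0.51 to −0.02, adjusted p = 0.237). Camk4 had 30716, 43653 and 40808 in WT and 39499, 39599 and 40443 in SCA1 KI (LFC 0.07, 95% interval −0.19 to 0.33, adjusted p = 0.846). WT library 2 was the lowest WT library for both genes. Its summed level of 6 granule cell markers was also the lowest, 132653 against 179761 to 186661 in the other WT libraries and 188126 to 195236 in SCA1 KI. Without WT library 2 the LFC of Camkk2 was −0.43 and passed (adjusted p = 0.010, limma), and that of Camk4 turned to −0.08 and did not pass.

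Camkk1 and Camk1d fell in the cerebellum too. Camkk1 had 2717, 2317 and 2586 normalized counts in WT and 1782, 1774 and 1917 in SCA1 KI (LFC −0.48, standard error 0.082, adjusted p = 0.00452). Camk1d had 4344, 4138 and 4311 in WT and 2964, 3092 and 3227 in SCA1 KI (LFC −0.46, standard error 0.065, adjusted p = 0.00124). For both genes the genotypes were well apart, and these were the 2 members that were lower DEGs in both regions, as were 1.28% of all tested genes.

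Camk1 and Camk1g had lower values in every SCA1 KI cerebellum library than in any WT library, without passing. Camk1 had 1886, 1825 and 1861 in WT and 1570, 1522 and 1585 in SCA1 KI (LFC −0.25, standard error 0.082, adjusted p = 0.107). Camk1g had 666, 639 and 622 in WT and 537, 531 and 509 in SCA1 KI (LFC −0.29, standard error 0.11, adjusted p = 0.200). Both passed when the cerebellar libraries were fitted alone, with adjusted p of 0.0150 for Camk1 and 0.0355 for Camk1g, and Camk1 also passed when cortical SCA1 KI library A was left out (adjusted p = 0.0456).

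The AMPK subunits did not pass in the cerebellum. Prkaa1 had 2235, 2013 and 2038 in WT and 2080, 2132 and 2196 in SCA1 KI, an overlap (LFC 0.03, adjusted p = 0.881). Prkaa2 had 1861, 1906 and 1769 in WT and 1954, 1999 and 2011 in SCA1 KI, where the SCA1 KI libraries were the higher ones (LFC 0.11, 95% interval −0.03 to 0.24, adjusted p = 0.425).

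Camkv had the largest LFC of any member in either region. In the WT cerebellum its libraries held 1655, 772 and 1074 normalized counts, and in SCA1 KI 186, 170 and 247. The lowest WT library was far above the highest SCA1 KI library, and the WT values varied with an SD of 38.5% of the mean. The LFC was −2.48 (standard error 0.21, adjusted p = 2.79e-05, limma), 5.58-fold lower, and stayed between −2.74 and −2.19 when any 1 library was left out.

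The level of Camkv in the cerebellum was low next to that in the cortex, at 7.28% of the WT cortical mean in WT and 1.25% in SCA1 KI. Several markers of other brain regions, and the interneuron marker Sst, followed the same libraries. Nrgn, the neurogranin gene of forebrain neurons, had 2687, 1777 and 2480 in the WT cerebellum and 155, 96.8 and 118 in SCA1 KI. Sst, the somatostatin gene, had 864, 368 and 528 in WT and 56.4, 41.2 and 72.6 in SCA1 KI. The order of the WT libraries (2, then 6, then 4) was the same for Camkv, Camkk1, Camk1, Camk1d and Prkaa1 and for Nrgn and Sst. The markers Crhbp, Tcf7l2, Pou4f1, Tal1, Gata3 and Shox2 had this order too. Other genes had another order: Camkk2 and Camk4 ran from library 4 over 6 to 2, Camk1g, Vip and Lef1 from 2 over 4 to 6, and Prkaa2 from 4 over 2 to 6. All 6 thalamic and midbrain markers fell in the cerebellum, from a sum of 2106 to 3513 in WT to 485 to 570 in SCA1 KI. Of the 4 markers of forebrain neurons 2 fell, Nrgn and Crhbp, and the sum went from 2144 to 3027 in WT to 414 to 479 in SCA1 KI. Neurod6, also on that list, had overlapping genotypes, with 262 to 304 in WT and 272 to 325 in SCA1 KI. The 6 oligodendrocyte markers summed to 178046 to 266831 in WT and 152414 to 152494 in SCA1 KI. Astrocyte markers summed to 96669 to 99595 in WT and 86924 to 90285 in SCA1 KI, and interneuron markers to 53650 to 54444 and 44222 to 46498. Of 7 Purkinje cell markers 0 were DEGs and 5 were lower without overlap (17.5% of all tested genes), while their sums overlapped. Choroid plexus markers summed to 18647 to 70571 in WT and 547 to 73727 in SCA1 KI. The part of these markers in the differences of Camkv, Camkk1 and Camk1d was not tested.

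**Figure D2:**
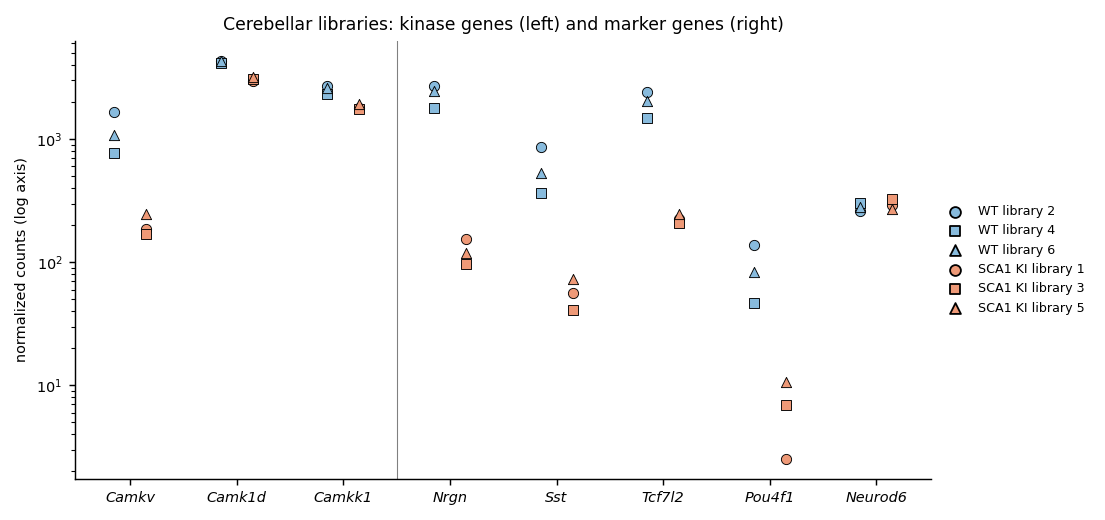
Normalized counts (log axis) of Camkv, Camk1d and Camkk1 (left of the line) and of 5 marker genes (right). Each symbol is 1 of the 3 WT and 3 SCA1 KI cerebellar libraries. Sst was listed as an interneuron marker and the others as markers of other brain regions. Camkv, Nrgn, Sst, Tcf7l2 and Pou4f1 are all lower in every SCA1 KI library, whereas Neurod6 overlaps.

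In all, 3 of the 9 members were lower DEGs in the SCA1 KI cerebellum (Camkv, Camkk1 and Camk1d), where 4.44% of all tested genes were. None was a higher DEG (0.917% of all tested genes), none of the higher values had an unadjusted p under 0.05, and edgeR and DESeq2 called 3 lower and 0 higher as well. The genotypes did not overlap for 5 members that were lower (17.5% of all tested genes) and 1 that was higher (14.3%). The median LFC of the 9 members was −0.27, beside −0.005 over all tested genes.

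The difference between the regions was tested as an interaction of region and genotype in the same fit. It passed for 4 of the 9 members, where 8.15% of all tested genes passed. Camkk2 (LFC in the cortex minus LFC in the cerebellum −1.02, standard error 0.16, adjusted p = 0.00220) and Camk4 (−1.09, standard error 0.17, adjusted p = 0.00221) fell more in the cortex, and both passed in each of the 12 fits that left out a library. Camkv went the other way (2.08, standard error 0.30, adjusted p = 0.00136), with the greater fall in the cerebellum. Prkaa2 passed at −0.36 (adjusted p = 0.0263), but not in 7 of the 12 fits without 1 library (adjusted p 0.0502 to 0.0695) or after correction for transcript length and base composition (−0.29, adjusted p = 0.0999).

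For the members that fell in both regions no difference between the regions was shown. The interaction of Camkk1 was −0.14 (95% interval −0.39 to 0.11, adjusted p = 0.535), and that of Camk1d was 0.16 (95% interval −0.04 to 0.36, adjusted p = 0.351). Camk1g (−0.30, adjusted p = 0.329), Camk1 (0.23, adjusted p = 0.287) and Prkaa1 (0.16, adjusted p = 0.329) did not pass either, so that a call in the cortex alone, as for Camk1g, is not a shown difference between regions.

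**Figure D3:**
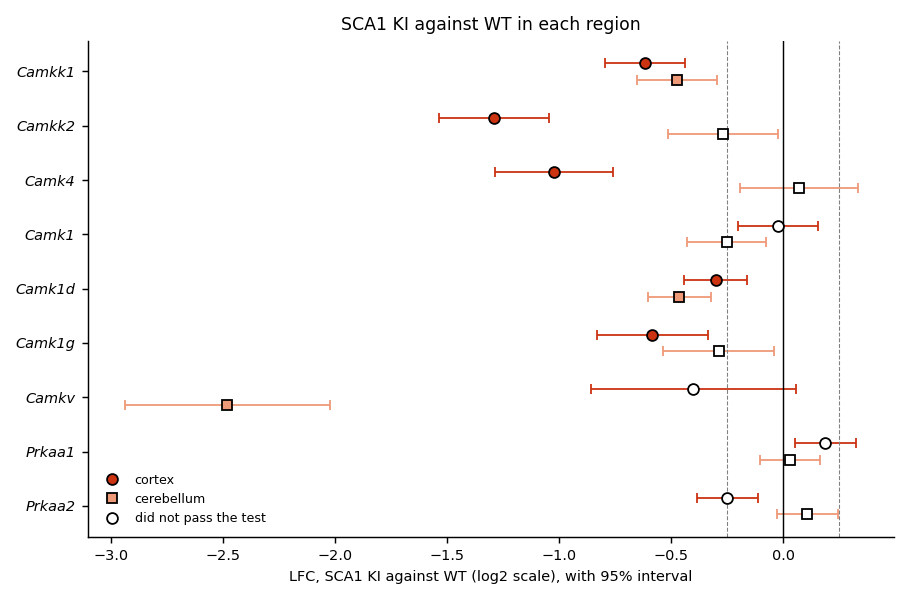
LFC of SCA1 KI against WT (horizontal axis, log2 scale) with the 95% interval for each member in the cortex (circles) and the cerebellum (squares). Filled symbols are DEGs and dashed lines are the LFC limits of 0.25 in either direction. The intervals of the 2 regions lie apart for Camkk2 (−1.29 and −0.27), Camk4 (−1.02 and 0.07), Camkv (−0.40 and −2.48) and Prkaa2 (−0.25 and 0.11).

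The balance within pairs of related genes was compared as the log2 ratio of their normalized counts, which does not depend on the scaling of a library. Camkk2 over Camkk1 was 1.75, 1.74 and 1.60 in the WT cortex libraries and 0.75, 1.08 and 1.24 in SCA1 KI. All 3 SCA1 KI ratios were lower, and the mean fell by 0.67, from 3.24 to 2.03 Camkk2 counts per Camkk1 count as a geometric mean. In a 2-sided exact permutation test this gave p = 0.1, the smallest that 3 against 3 libraries allow. In the cerebellum the ratio overlapped between WT (1.65, 2.38 and 2.18) and SCA1 KI (2.40, 2.28 and 2.15), with an exact p of 0.6.

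Prkaa2 over Prkaa1 was 0.97, 1.17 and 1.10 on the log2 scale in WT cortex and 0.70, 0.69 and 0.53 in SCA1 KI cortex (mean difference −0.44, exact permutation p = 0.1). The ranges were apart in the cortex and overlapped in the cerebellum, where the log2 ratio averaged −0.18 in WT and −0.10 in SCA1 KI (exact permutation p = 0.4). Camk1d over Camk1 overlapped in the cortex (difference −0.28, exact permutation p = 0.3) and was lower in all SCA1 KI cerebellum libraries (difference −0.21, exact permutation p = 0.1). Over these 6 tests the design can reach no p under 0.1, so none could pass a threshold of 0.05 even before adjustment.

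**Figure D4:**
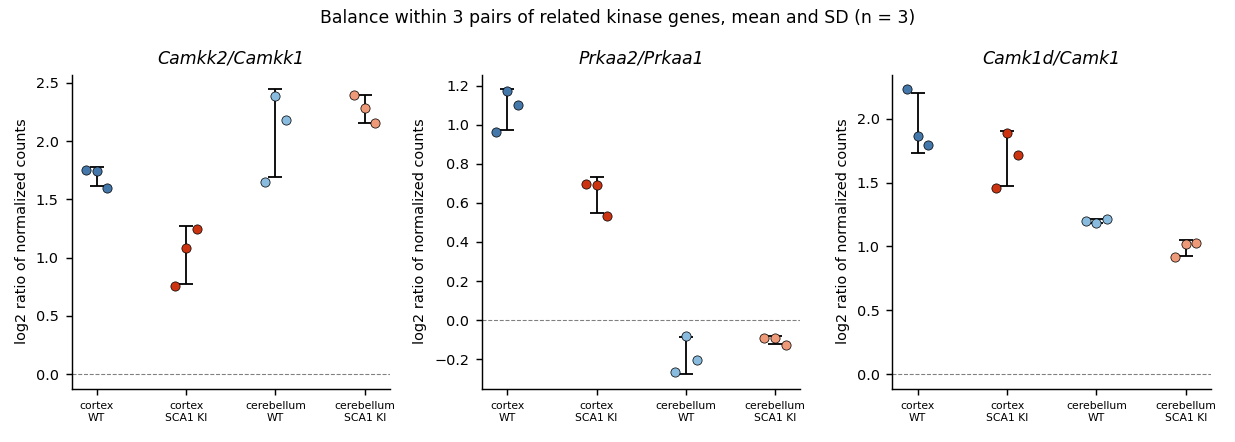
log2 ratio of the normalized counts of 3 pairs of related genes in every library (points), with SD whiskers around the mean (n = 3); the dashed line marks equal counts. In the cortex the Camkk2/Camkk1 ratio lies at 1.60 to 1.75 in WT and 0.75 to 1.24 in SCA1 KI, and Prkaa2/Prkaa1 also separates.

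Across the regions in WT mice, 7 members were higher in the cortex (31.0% of all tested genes were) and 2 in the cerebellum (30.7%). Camkv led with an LFC of 3.85 for cortex against cerebellum, followed by Camk1d (1.28), Camk1g (1.17), Camkk1 (1.15), Prkaa2 (0.91), Camkk2 (0.78) and Camk1 (0.52). Camk4 (−0.91) and Prkaa1 (−0.35) were the members with more in the cerebellum. The fall in the SCA1 KI cortex took Camkk2 to 7498 normalized counts, below both cerebellar groups (10769 in WT, 8849 in SCA1 KI), although WT cortex was the highest of the 4 groups. For Camkk1, Camk1d, Camk1g and Camkv both cortical groups stayed above both cerebellar groups, with no overlap between neighbours in that order. The WT and SCA1 KI groups could not be ordered beyond their spread for Camkk2, Camk4 and Prkaa1 in the cerebellum or for Camk1 in the cortex.

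Levels of different genes were set side by side per kilobase of merged exons. In WT cortex Camk4 was the most abundant member at 6212 ± 200 normalized counts per kilobase (SD, n = 3), followed by Camkv (4259 ± 337), Camkk2 (1674 ± 82.2), Camkk1 (1515 ± 98.5) and Camk1d (1400 ± 95), of which the ranges of Camkk1 and Camk1d overlapped. Camk1g (530), Camk1 (446), Prkaa2 (436) and Prkaa1 (353) were lower, and only Prkaa2 and Prkaa1 were apart among these neighbours. In the SCA1 KI cortex Camk4 (3083 ± 477) and Camkv (3222 ± 206) overlapped, and Camkk2 (687 ± 60.8) had dropped from the third to the fifth place, below Camk1d (1136) and Camkk1 (989). The kinase kinases thus changed order per length, with Camkk2 above Camkk1 in WT cortex and below it in SCA1 KI cortex, in both cases without overlap of the libraries. In WT cortex the lowest Camkk2 library (1610) was only just above the highest Camkk1 library (1591). The order depends on merged exon lengths of 10.921 kilobases for Camkk2 and 3.728 for Camkk1, which need not be those of the transcripts present. By normalized counts Camkk2 stayed above Camkk1 in both cortical groups (ratios 3.24 and 2.03). In the cerebellum Camk4 stood far above the rest, at 11780 ± 2086 per kilobase in WT and 12227 ± 159 in SCA1 KI, with Camkk2 next at 986 ± 179 and 810 ± 42.7. Prkaa1 exceeded Prkaa2 per kilobase in the cerebellum (450 and 232 in WT), and the reverse held in WT cortex.

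**Figure D5:**
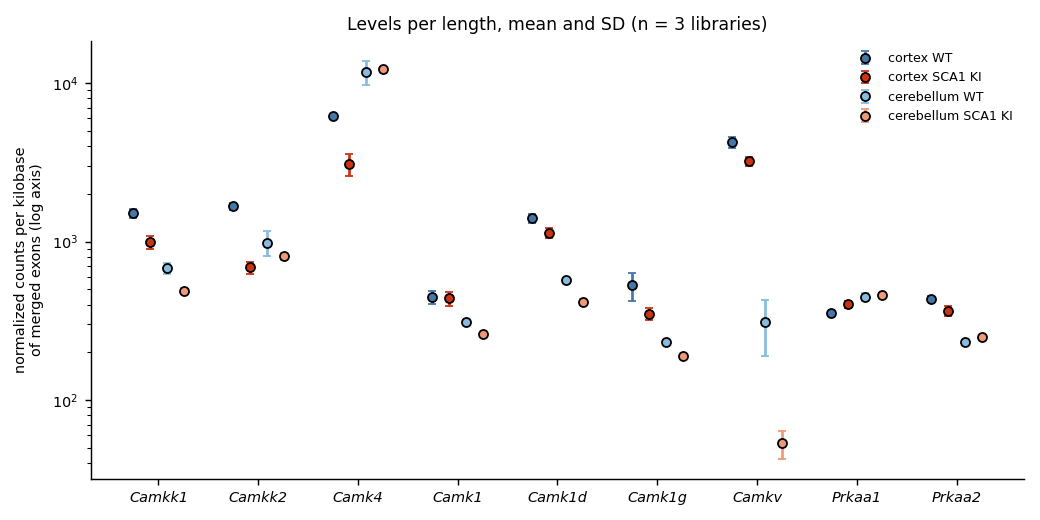
Normalized counts per kilobase of merged exons (log axis) of the 9 members in the 4 groups, as mean and SD of 3 libraries. Camk4 is the highest member in the cerebellum (11780 in WT), and Camkv spans from 4259 in WT cortex to 53.4 in SCA1 KI cerebellum.

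The genes whose pattern was nearest to each member were found by Pearson correlation over the 12 libraries after the mean of each region had been subtracted, so that a shared genotype difference and shared library composition both enter. Camkk2 lay nearest to Dgkz (r = 0.994), Kcnc1 (0.985) and Itpr1 (0.983), and Camk4 to Ppp3ca, the catalytic subunit of calcineurin (0.994), Adcy1 (0.990) and Prkcb (0.983). Camkv lay nearest to Sst (0.995), Hs3st4 (0.993) and Kcnc2 (0.991). Camkk1 was nearest to Chn1 (0.984), Neu2 and Scn1a, and Camk1d to Ankrd63 (0.959), Slc24a4 and Arhgap20. First neighbours of the other members were those of Camk1g (Nap1l1, 0.965), Prkaa2 (Scai, 0.964), Camk1 (Chd3os, 0.936) and Prkaa1 (Dpysl3, 0.934). Between members the highest correlation was that of Camkk2 with Camk4 (0.944).

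AMPK works as a complex of a catalytic subunit with a scaffold and a nucleotide-binding subunit, and none of the latter was called. Of 4 tested regulatory subunits (Prkab1, Prkab2, Prkag1 and Prkag2) 0 were DEGs in either region and 0 had an unadjusted p under 0.05, by limma, and edgeR and DESeq2 called 0 too. Their LFC lay between −0.09 and 0.06 in the cortex and between −0.14 and 0.10 in the cerebellum. Prkag3 was too low to be tested. Among 6 genes of the LKB1 complex and other AMPK kinases, Stradb, the pseudokinase partner of LKB1, fell in the cortex (LFC −0.28, adjusted p = 0.0232), a call that was lost in 4 of the 6 fits without 1 cortical library. Stk11, the gene of LKB1, had an LFC of −0.13 (adjusted p = 0.161), and 0 of the 6 genes were DEGs in the cerebellum under limma or any alternative, or had an unadjusted p under 0.05. Of all tested genes 10.8% were lower and 4.82% higher DEGs in the cortex, and 4.44% and 0.917% in the cerebellum. The counts in these lists of 4 and 6 genes are near those shares and say nothing particular of the lists.

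Of 14 genes of AMPK substrates 2 fell and 1 rose in the SCA1 KI cortex, close to the shares of all tested genes (10.8% and 4.82%), so the count says nothing particular of the list. Foxo3, a transcription factor of stress responses, went from 2125 to 1432 mean normalized counts (LFC −0.57, adjusted p = 0.00366), Ppargc1a, the coactivator of mitochondrial biogenesis, from 2750 to 2265 (−0.28, adjusted p = 0.0219), and Crtc2, a CREB coactivator, from 730 to 890 (0.29, adjusted p = 0.0469). The count of calls in this list was 1 without WT library C and 1 when the cortex was fitted alone. In the cerebellum 0 of 14 were DEGs in limma and in all alternatives, and 0 had an unadjusted p under 0.05. Only 4.44% of all tested genes were lower and 0.917% higher DEGs there, so this count says little of the list. Of 13 AMPK-related kinases 4 fell in the cortex, Brsk2 (−0.38), Mark2 (−0.43), Brsk1 (−0.29) and Melk (−1.67), the first 3 being kinases of neuronal polarity and microtubules. None of the 13 was a DEG in the cerebellum by limma or edgeR, though DESeq2 called 1 and limma called 1 without WT library 2, and 4 had an unadjusted p under 0.05.

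Downstream of CaMKIV, 5 of 14 genes of its substrates and nuclear partners fell in the cortex, where 10.8% of all tested genes did, and 0 rose. After correction for transcript length and base composition 3 of the 14 were called. Camta2, a calmodulin-binding transcription activator, fell most clearly, from 15704 to 9780 mean normalized counts (LFC −0.68, adjusted p = 8.62e-05), with Hdac4 (−0.71, adjusted p = 0.00284), Crtc1 (−0.40, adjusted p = 0.00545) and Mef2d (−0.45, adjusted p = 0.00718). Of 8 CREB-responsive genes Arc (11001 to 4083, LFC −1.39, adjusted p = 1.97e-04) and Egr1 (15881 to 9251, LFC −0.76, adjusted p = 0.0178) fell. The number of CREB-responsive calls was 1 without WT library C or SCA1 KI library F, 1 after the correction for transcript length and base composition, and 4 without SCA1 KI library A. In the cerebellum 0 genes of both lists were DEGs under limma and every alternative, and 0 had an unadjusted p under 0.05. Only 4.44% of all tested genes were lower and 0.917% higher DEGs there, so the absence of calls says little of the lists. The median cortical LFC was −0.17 over the 14 partners and −0.62 over the 8 CREB-responsive genes.

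Upstream, the calmodulin gene Calm3 (68064 to 55687 mean normalized counts, LFC −0.29, adjusted p = 0.00318) fell in the cortex, while Calm2 had an LFC of −0.12 that did not pass (adjusted p = 0.378). Ppm1f, a phosphatase of the CaM kinases, fell in both regions (LFC −0.31 and −0.29, adjusted p = 0.00736 and 0.0236, for cortex and cerebellum), the cerebellar call being lost without WT library 2 or any single SCA1 KI cerebellum library. In the main fit 3 of the 5 genes of this list were lower DEGs in the cortex, beside 10.8% of all tested genes. In the cerebellum 1 was, beside 4.44%. After correction for transcript length and base composition the list had 1 call in place of 3 in the cortex, and 0 in place of 1 in the cerebellum.

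Among 17 other genes of the CaM kinase family, 5 fell and 3 rose in the cortex, beside 10.8% and 4.82% of all tested genes. The 8 calls became 5 when the cortex was fitted alone. Pnck, which encodes the CaMKI-related kinase CaMKIβ (chromosome X, 73655994 to 73660117, GRCm38), rose from 1648, 1502 and 1785 normalized counts in WT to 4140, 3253 and 2995 in SCA1 KI (LFC 1.06, standard error 0.13, adjusted p = 1.80e-04). All SCA1 KI cortex libraries were above all WT libraries, so this relative moved opposite to Camk1d and Camk1g. In the cerebellum Pnck had 1565, 1182 and 1376 in WT and 1142, 1013 and 1279 in SCA1 KI, an overlap (LFC −0.26, adjusted p = 0.343). Camk2a and Camk2g, subunits of CaMKII, fell in both regions, Camk2a with an LFC of −1.12 in the cortex and −1.0 in the cerebellum and Camk2g with −0.49 and −0.39. Mylk3 fell in the cortex from 195 to 55.1 mean normalized counts (LFC −1.84, adjusted p = 9.01e-04). In the cerebellum 3 of the 17 fell and 1 rose, beside 4.44% and 0.917% of all tested genes. Among those that fell was Dclk3 (257 to 145, LFC −0.78, adjusted p = 0.010). The gene that rose was Mylk3, although its WT cerebellum libraries held at most 1.22 normalized counts and no fold can be given. Without SCA1 KI library 3 the limma count in the cerebellum was 2.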

How the data were processed

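Poly-adenylated RNA was sequenced by the authors as paired ends, aligned with STAR to mm10, counted with featureCounts and normalized with DESeq2 (versions and strandedness not given in the sources used here). The deposited signal is the DESeq2-normalized count per gene and library. In every library 100% of values were whole reads within 0.01 reads, and these were used for edgeR 4.0.16 and DESeq2 1.42.0 as alternatives.

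For 15369 genes whose mean reached 10, log2(normalized count + 1) was fitted with limma 3.58.1 (R 4.3.3, empirical Bayes with trend) over 12 libraries and 4 group means, with Benjamini-Hochberg adjustment over all genes. A DEG needed |LFC| above 0.25 together with an adjusted p below 0.05, and the interaction had no LFC limit. The pseudocount understates the LFC of low genes. The sources used here do not tie each library to an animal, so the p-values measure the spread between libraries, which may be technical. Ratios were tested with 2-sided exact permutation tests. Positions and exon lengths are from GENCODE vM21.

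The members, the lists and the rule for named genes (every member, at most 4 called genes per list and comparison by smallest p, and the 3 nearest genes per member) were chosen with earlier results of these data known. On simulated counts of the cortex comparison with 15369 genes, limma recovered 79% of genes changed 1.5-fold and 97% of those changed 2-fold and called 6 of 15169 unchanged genes. The changed genes, 100 for each fold, all had a mean of at least 100, so recovery of lower genes was not simulated. They were also far fewer than the 1661 lower and 741 higher DEGs called in the cortex. The alternatives comprised a pseudocount of 0.5 or 5, filtering at a mean of 100 or not at all, separate fits per region, median centring (shifts of at most 0.021 log2), edgeR, DESeq2, an LFC limit of 1 or none, correction of each library for a trend on exon length and GC content, and 12 fits without 1 library. Some genes of the lists are not reported here.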

Additional observations from a re-analysis of the deposited data

Results flagged for a closer look

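The effect of genotype differed between cortex and cerebellum by the interaction test (limma, adjusted p under 0.05) for 4 members and, among the genes reported here, 11 of the pathway lists. The lists hold 82 genes, not all of them tested or reported, and 8.15% of all tested genes passed. Each value is the LFC in the cortex minus the LFC in the cerebellum. Among the members these were Camkk2 (−1.02), Camk4 (−1.09), Prkaa2 (−0.36) and Camkv (2.08), as described above. The first 3 had the more negative LFC in the cortex and Camkv in the cerebellum.

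Among the AMPK substrates the difference was −0.39 for Ppargc1a (adjusted p = 0.0440) and −0.72 for Foxo3 (adjusted p = 0.0143), and in 9 of the 12 fits without 1 library a single gene of the list passed. Among the AMPK-related kinases it was −0.45 for Brsk2, −0.46 for Mark2 and −2.65 for Melk. Melk held at most 3.37 normalized counts in any cerebellar library, so its cerebellar LFC has little behind it. Camta2 (−0.71) and Arc (−1.28) passed among the nuclear partners of CaMKIV and the CREB-responsive genes, both with a lower level in the SCA1 KI cortex and overlapping genotypes in the cerebellum.

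In the rest of the CaM kinase family the difference was 1.32 for Pnck (adjusted p = 0.00125), 2.20 for Stk33 and −3.19 for Mylk3. Stk33 held 14.4 to 81.1 normalized counts over all libraries, and Mylk3 at most 6.18 in the cerebellum. Calm3 (−0.31) passed as well, but not in the fits without WT library C of the cortex or SCA1 KI library 1 of the cerebellum.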

How the results depend on the processing

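Of 792 LFC and calls of the 9 members over 23 alternatives, 760 kept their direction and their side of the threshold, 19 lost the call, 8 gained it and 5 changed sign. Part of this agreement was fixed in advance. Leaving out a library that is not in a comparison cannot change its LFC, and the alternative LFC limits reuse the main fit. The total is therefore no measure of how stable the results are. With a limit of 1 on the absolute LFC, 2 members were lower in the SCA1 KI cortex, 1 in the SCA1 KI cerebellum, 4 were higher and 0 lower in WT cortex than in WT cerebellum. With each region fitted alone, 5 members were lower in the cerebellum and 6 in the cortex. Leaving out 1 library gave 5 to 6 lower members in the cortex, 3 to 4 in the cerebellum, 3 to 4 with an interaction, and 7 higher and 2 lower in WT cortex in each such fit. Without 1 library the LFC of Camk1 in the cortex ranged from −0.11 to 0.025 and that of Camk4 in the cerebellum from −0.083 to 0.17, none passing. Camk1 changed sign to 0.025 without WT library C, 0.01 without WT library D, 0.022 without SCA1 KI library E and 0.01 without SCA1 KI library F, and Camk4 to −0.083 without WT library 2. The causes of these changes were not tested beyond the samples or the limit that each alternative changes. With each region alone the cortical counts of calls were 5 for the other CaM kinases and 1 for the AMPK substrates. The Camkk2/Camkk1 difference in the cortex ranged from −0.78 to −0.53 and the Prkaa2/Prkaa1 difference from −0.50 to −0.38 on the log2 scale without 1 library.

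No paired analysis was possible because the columns carry letters and numbers that are not the replicate numbers of the labels. With 3 libraries per group the exact permutation p cannot go below 0.1. Depth differed by library (29520855 to 51311309 reads), but no member had fewer than 221 reads. Region cannot be told apart from experiment, and bulk tissue does not separate cell number from RNA per cell.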
